A study of Mus musculus with 10 samples.

Results

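Tmem176a and Tmem176b are neighbouring genes that encode small proteins with several membrane passes. They are related to the MS4A family, whose best known member is the B cell protein CD20. Both proteins sit in endosomal membranes of myeloid cells, where they act as cation channels. In mouse work TMEM176B has been linked to restraint of the inflammasome, and dendritic cells that lack both proteins present antigen on MHC class II less well.

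The pair was taken by gene name from a table of raw read counts for 46603 genes, so that 2 of 46603 genes are described here, in all 10 libraries. It was chosen by its lower level in PDPN-positive macrophages, that is, by the values of the contrast between the sorted fractions. This difference is therefore given as a description, without a test. Both genes were well covered, with between 360 and 3559 counts of Tmem176a and between 658 and 5607 counts of Tmem176b per library, and both passed the filter on low counts, as did 13595 genes in all.

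The macrophages came from tumours of 4T1, a cell line of mouse breast cancer. Live cells with CD11B and F4/80 on their surface were sorted into a fraction with surface podoplanin (PDPN), called PoEMs, and a fraction without it, called non-PoEMs. Each fraction gave 5 libraries, 1 from each of the tumours numbered 1, 2, 4, 5 and 6. The labels give no treatment, genotype, strain or age for the mice and do not say whether each tumour came from its own mouse, so the spread between libraries is a spread between tumours. The study, by its title, asked about PDPN-positive macrophages, lymphatic vessel growth and lymphatic spread of breast cancer.

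Library totals ran from 12597829 to 15406722 counts. The sorted gene separated the fractions: Pdpn averaged 214.5 ± 22.9 CPM in PoEMs and 19.3 ± 7.33 CPM in non-PoEMs (SD, n = 5 each). CPM are counts divided by the TMM-scaled library total in units of 1e6. Macrophage markers were abundant in both fractions, with a summed level of 10 markers between 15749 and 17410 CPM in PoEMs and between 15705 and 17401 CPM in non-PoEMs. In bulk RNA, fewer cells of a type that expresses a gene and less of its RNA per cell cannot be told apart.

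The pair lies head to head on chromosome 6. In GENCODE M21 (GRCm38) Tmem176b (ENSMUSG00000029810, protein-coding, minus strand) spans chr6:48833818-48841496 and Tmem176a (ENSMUSG00000023367, protein-coding, plus strand) spans chr6:48840919-48847071. The labels do not name the build behind the counts, so positions serve for identification. The gene bodies overlap by 578 bases, and 81 exonic bases belong to both genes, which is 2.13% of the exonic bases of Tmem176a and 3.42% of those of Tmem176b. Whether strand was used in counting is not given either, so reads in that stretch cannot be assigned to 1 gene with certainty. In RefSeq models of the same build the span of Tmem176b runs on to 48845948, past the end of Tmem176a at 48845364.

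**Figure D1:**
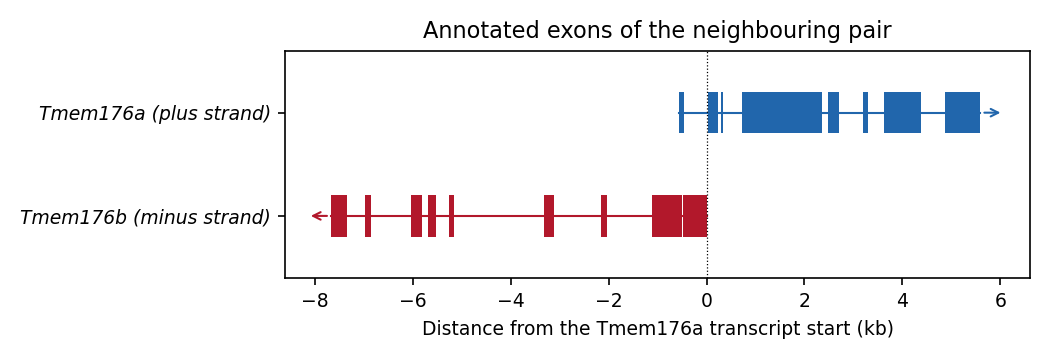
Exons of Tmem176a (top, blue) and Tmem176b (bottom, red) in GENCODE M21, merged over transcripts, against distance in kilobases from a Tmem176a transcript start. Boxes are exons, thin lines the gene span and arrows the direction of transcription, and 81 exonic bases are held by both genes.

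The start regions are shown because both genes are transcribed away from 1 short stretch. RefSeq lists 2 start windows for Tmem176a and 3 for Tmem176b, each running from 250 bases before to 50 bases after a transcript start. Of these, the divergent starts closest to each other are 109 bases apart. Their windows are given 5′ to 3′ on the strand of each gene (RefSeq, GRCm38.p6), Tmem176a at chr6:48841233-48841532 and Tmem176b at chr6:48841325-48841624. Capitals mark the 208 bases held by both windows.
Tmem176a: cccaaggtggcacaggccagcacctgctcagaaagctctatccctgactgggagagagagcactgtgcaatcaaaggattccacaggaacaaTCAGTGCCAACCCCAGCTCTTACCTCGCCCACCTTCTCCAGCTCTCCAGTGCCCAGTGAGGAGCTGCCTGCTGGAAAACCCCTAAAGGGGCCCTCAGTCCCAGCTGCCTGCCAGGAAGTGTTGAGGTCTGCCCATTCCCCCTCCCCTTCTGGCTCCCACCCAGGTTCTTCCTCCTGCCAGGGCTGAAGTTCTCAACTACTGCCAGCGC
Tmem176b: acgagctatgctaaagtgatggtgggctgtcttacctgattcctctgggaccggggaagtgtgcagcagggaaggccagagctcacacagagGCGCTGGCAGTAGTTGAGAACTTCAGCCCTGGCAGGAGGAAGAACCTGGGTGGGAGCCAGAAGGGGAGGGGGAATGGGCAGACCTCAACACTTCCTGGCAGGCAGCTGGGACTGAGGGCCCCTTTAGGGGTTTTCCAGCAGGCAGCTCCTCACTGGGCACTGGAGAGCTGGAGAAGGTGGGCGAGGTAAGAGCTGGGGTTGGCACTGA

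The windows were searched on both strands for 6 motifs that do not overlap one another. The core AGGAAGT, bound by ETS factors such as PU.1 of myeloid cells, was found in the shared stretch and thus in both windows, and is present in 9.35% of the 32851 RefSeq windows of this length. No match was found for the C/EBP motif TTGCNNAA (in 10.8% of windows), the interferon-stimulated response element of IRF factors (3.44%), the AP-1 motif TGANTCA (7.81%), the CCAAT box CCAAT (37.4%) or the ROR core AGGTCA (16.3%). A match describes these letters and is not evidence of binding.

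Both genes were far less abundant in PoEMs than in non-PoEMs. Tmem176a measured 46.3, 42.8, 30.04, 27.4 and 30.4 CPM in the PoEMs of tumours 1, 2, 4, 5 and 6, against 156.4, 233.2, 183.4, 212.5 and 102.4 CPM in the non-PoEMs of the same tumours. Every PoEM library lay below every non-PoEM library. The mean was 35.4 ± 8.53 CPM in PoEMs and 177.6 ± 51.1 CPM in non-PoEMs (SD, n = 5 each), which is 5.02-fold lower in PoEMs.

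Tmem176b showed the same order of groups. It measured 90.4, 77.8, 59.6, 50.1 and 53.2 CPM in the PoEMs of tumours 1, 2, 4, 5 and 6, against 295.6, 367.5, 310.9, 347.9 and 174 CPM in the non-PoEMs. The groups did not overlap here either. The mean was 66.2 ± 17.2 CPM in PoEMs and 299.2 ± 75.6 CPM in non-PoEMs (SD, n = 5 each), 4.52-fold lower in PoEMs.

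Such a pattern was not rare among the genes tested: 5.13% of them were lower in PoEMs with no overlap of the groups, and 17.6% were lower in PoEMs in all 5 tumours. Fitted changes of this size were rarer. The log2 fold change was -2.33 for Tmem176a and -2.18 for Tmem176b, and 48 of the 13595 genes (0.353%) fell at least as far as Tmem176b, the pair included. These shares describe the contrast by which the pair was chosen.

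**Figure D2:**
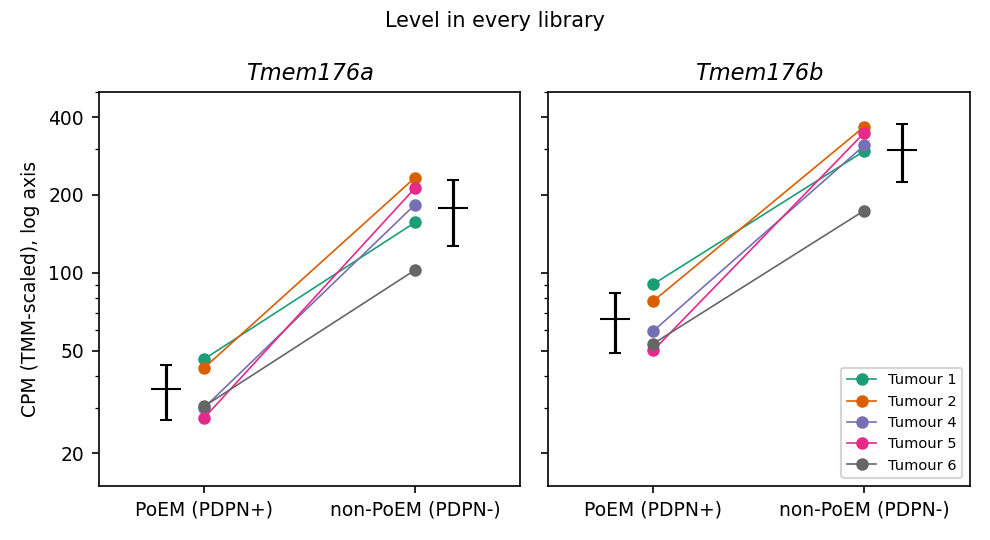
CPM of Tmem176a (left) and Tmem176b (right) in each library on a logarithmic axis, with PoEMs left of non-PoEMs and a line joining the libraries of each tumour. Black bars give the mean and SD of 5 libraries; Tmem176a lies between 27.4 and 46.3 CPM in PoEMs and between 102.4 and 233.2 CPM in non-PoEMs.

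Exons merged over GENCODE M21 transcripts held 3810 bases of Tmem176a and 2371 bases of Tmem176b, and levels per kilobase depend on these lengths. Per kilobase of such exons, Tmem176b was the more abundant of the pair in both fractions. Its level was 27.9 ± 7.27 CPM per kb in PoEMs and 126.2 ± 31.9 CPM per kb in non-PoEMs, while Tmem176a had 9.29 ± 2.24 CPM per kb in PoEMs and 46.6 ± 13.4 CPM per kb in non-PoEMs (SD, n = 5 each). The pair was also set beside a macrophage gene. Adgre1, which encodes F4/80, averaged 526.5 ± 70.7 CPM in PoEMs and 572.7 ± 62.2 CPM in non-PoEMs and did not pass the test (a fitted change of -0.12 ± 0.10 SE on the log2 scale and an adjusted p of 0.463 by edgeR). The summed CPM of the pair divided by that of Adgre1 in the same library was 0.198 ± 0.0644 in PoEMs and 0.823 ± 0.167 in non-PoEMs. As Adgre1 differed little, this ratio restates the contrast by which the pair was chosen and is no separate support.

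The size of the difference varied from tumour to tumour, and it varied in the same way for both genes. Within tumours, the log2 ratio of PoEMs to non-PoEMs for Tmem176a was -1.76 in tumour 1, -2.45 in tumour 2, -2.61 in tumour 4, -2.95 in tumour 5 and -1.75 in tumour 6. For Tmem176b it was -1.71, -2.24, -2.38, -2.79 and -1.71 in the same order. Tumour 5 had the widest gap and tumours 1 and 6 the narrowest for both. The SD over the 5 tumours was 0.53 for Tmem176a and 0.46 for Tmem176b on the log2 scale.

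The pair kept a nearly fixed ratio in all libraries. There were 1.87 ± 0.0979 counts of Tmem176b for each count of Tmem176a in PoEMs and 1.70 ± 0.118 in non-PoEMs (SD, n = 5 each), with ranges of 1.75 to 1.98 and 1.58 to 1.89 that overlap. Within tumours the ratio was higher in PoEMs in 5 of 5, at 1.95 against 1.89 in non-PoEMs of tumour 1, 1.82 against 1.58 in tumour 2, 1.98 against 1.70 in tumour 4, 1.83 against 1.64 in tumour 5 and 1.75 against 1.70 in tumour 6. It comes from the contrast by which the pair was chosen and was not tested. Ranked from high to low, the non-PoEM libraries came in 1 order for both genes: tumours 2, 5, 4, 1 and 6. Among PoEMs the order was tumours 1, 2, 6, 4 and 5 for Tmem176a and 1, 2, 4, 6 and 5 for Tmem176b, where tumours 4 and 6 measured 30.04 and 30.4 CPM for Tmem176a.

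Likeness was measured as the SD over the 10 libraries of the log2 ratio between a gene and the pair, so that a small value means a constant ratio. It was taken for genes whose log2 CPM averaged 3 or more. Over all 10 libraries the log2 ratio of Tmem176a to Tmem176b had an SD of 0.11, and no other gene was closer to Tmem176a. With the mean of each fraction removed first, which takes out the difference between the fractions, the SD was 0.087, and Tmem176b again ranked 1 among the genes most like Tmem176a. It also did so when both libraries of any tumour were left out. The libraries of a tumour share their source and the pair shares 81 exonic bases, so this is a description with no p-value.

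The genes of MHC class II presentation were measured beside the pair. These molecules carry peptides from endosomes to the surface for CD4 T cells, the invariant chain CD74 guides them there, and CIITA is their master transcriptional activator. Of 16 list members 15 were tested, and 9 were lower and none higher in PoEMs (edgeR's quasi-likelihood test at an adjusted p under 0.05 after Benjamini-Hochberg), beside 6.77% of all genes lower and 6.83% higher. The median log2 fold change of the 15 was -0.83, against 0.0068 for all genes tested. The list was chosen with the lower class II level already known.

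The classical chains fell most. Summed over H2-Aa, H2-Ab1 and H2-Eb1, the level was 2897, 5118, 3109, 4492 and 3506 CPM in the PoEMs of tumours 1, 2, 4, 5 and 6, against 8385, 13608, 7806, 10956 and 8670.0 CPM in the non-PoEMs. The groups did not overlap. On the log2 scale the fitted change was -1.41 ± 0.19 for H2-Aa (SE, adjusted p = 0.000834 by edgeR), -1.46 ± 0.21 for H2-Eb1 (adjusted p = 0.00127) and -1.25 ± 0.19 for H2-Ab1 (adjusted p = 0.00148).

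Cd74 averaged 4581 ± 972 CPM in PoEMs and 8920 ± 1852 CPM in non-PoEMs (SD, n = 5 each, edgeR adjusted p = 0.00246). Ciita averaged 69.4 ± 19.9 CPM in PoEMs and 149.8 ± 52.0 CPM in non-PoEMs (edgeR adjusted p = 0.018). Of the peptide-loading catalyst HLA-DM, known as H2-DM in mice, H2-DMb1 fell by 0.87 and H2-DMb2 by 0.67 on the log2 scale. H2-DMa fell by 0.32 (edgeR adjusted p = 0.0399), a call lost on leaving out any of 7 libraries (adjusted p up to 0.101). With tumour as a block H2-DMa passed at an edgeR adjusted p of 0.000166.

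The factors that bind class II promoters moved less. Rfx5 fell by 0.35 on the log2 scale (edgeR adjusted p = 0.0274), a call lost without any of 5 libraries (adjusted p up to 0.0748). With tumour as a block Rfx5 passed at an edgeR adjusted p of 0.000739. Its partners in the RFX complex did not pass the test, with log2 fold changes of -0.23 ± 0.12 for Rfxank and 0.09 ± 0.10 for Rfxap (SE). The endosomal enzymes that prepare antigen and trim the invariant chain did not pass either, at -0.10 ± 0.09 for Ifi30 and -0.0044 ± 0.083 for Ctss. H2-Oa and H2-Ob, the chains of the loading modulator H2-O, passed only with tumour as a block (edgeR adjusted p = 0.0464 and 0.000569), where 11 members were lower beside 14.3% of all genes. The blocked call for H2-Oa was lost without tumour 1, 2, 4 or 6 (adjusted p up to 0.268). Without the non-PoEM library of tumour 2 the unblocked log2 fold change was -0.20 for H2-Oa, against -0.83 with it, and -0.42 for H2-Ob, against -1.13. H2-Eb2, with 2 counts in all PoEM and 13 in all non-PoEM libraries, was below the filter.

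Ccr2 encodes the chemokine receptor by which classical monocytes enter tissue. It measured 393.1, 506.4, 434.7, 388.7 and 395.5 CPM in the PoEMs of tumours 1, 2, 4, 5 and 6, against 868.1, 1175, 1027, 923.8 and 825.9 CPM in the non-PoEMs. The groups did not overlap, and the fitted change was -1.19 ± 0.11 on the log2 scale (SE, adjusted p = 2.34e-05 by edgeR). Of the 14 listed monocyte genes, Ccr2 included and all tested, 7 were lower and none higher, beside 6.77% and 6.83% of all genes, with a median log2 fold change of -1.11. Besides Ccr2, those with the lowest p were Nr4a1, a nuclear receptor gene of patrolling monocytes that is also an early response gene (log2 fold change -0.66 ± 0.08 SE), Cd177, which is better known from neutrophils (-1.87 ± 0.29), and Hp, which encodes haptoglobin (-1.30 ± 0.22).

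The other lower genes of that list were Ms4a4c, Ly6c2 and Ly6c1. Ly6c2, which encodes the surface marker of classical monocytes, averaged 2.97 ± 1.55 CPM in PoEMs and 15.9 ± 9.59 CPM in non-PoEMs (SD, n = 5 each, edgeR adjusted p = 0.028, and lost without any of 5 libraries). It passed with tumour as a block (edgeR adjusted p = 5.6e-07). F13a1, Ccr1, Vcan and Chil3 did not pass, with log2 fold changes between -0.13 and 0.29.

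The pair fell further than Ccr2 or any tested class II gene, and less evenly than Ccr2, the classical chains, Cd74 and Ciita. H2-Oa, at few counts, varied more, with an SD over tumours of 0.61. The mean of the 5 within-tumour log2 ratios was -2.30 for Tmem176a and -2.17 for Tmem176b, beside -1.18 for Ccr2, -1.42 for H2-Aa and -0.96 for Cd74. The SD over tumours was 0.079 for Ccr2, 0.11 for H2-Aa and 0.080 for Cd74, against 0.53 and 0.46 for the pair. Tumour 1, where the pair had one of its narrowest gaps, had the widest gap for H2-Aa, H2-Ab1, H2-Eb1 and Cd74. Tumour 5 had the widest gap for the pair and for Ccr2, at -1.25.

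**Figure D3:**
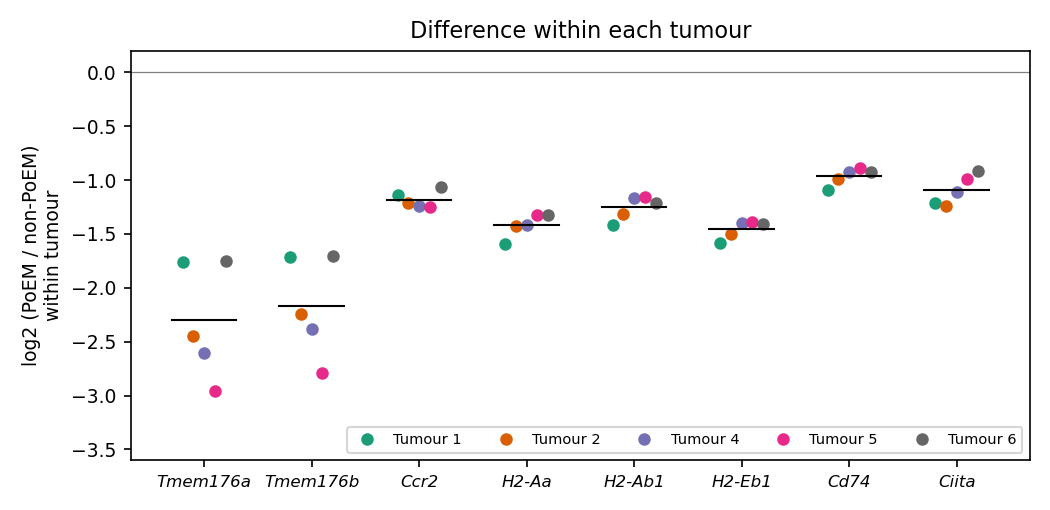
The log2 ratio of PoEMs to non-PoEMs within each tumour for the pair, Ccr2, 3 classical class II genes, Cd74 and Ciita. Points are tumours and black lines the mean of 5; the pair runs from -1.71 to -2.95, while Ccr2 runs from -1.06 to -1.25.

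Within PoEMs, the libraries did not line up for the pair and the classical class II chains. Among PoEMs, tumour 1 had the highest level of both genes of the pair and the lowest class II sum, and tumour 5 had the lowest level of the pair and the second highest class II sum. Among non-PoEMs, tumour 2 was highest and tumour 5 second for both. The lowest non-PoEM library of the pair was tumour 6, which stood in the middle for class II, and the lowest for class II was tumour 4. Ciita and Cd74 also had tumours 2 and 5 on top among non-PoEMs, and tumour 6 was lowest for Ciita and next to lowest for Cd74. For Ciita the order among non-PoEMs was tumours 2, 5, 1, 4 and 6, that of the pair with tumours 1 and 4 exchanged. Tumours 1 and 4 were nearly level there, at 121.9 and 121.6 CPM of Ciita. Among PoEMs, by contrast, tumour 1 was lowest for Ciita (52.4 CPM) and Cd74 (3725 CPM), and tumour 5 was second highest for both.

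Ccr2 was also close to the order of the pair among non-PoEMs. Tumour 2 was highest, tumour 6 lowest and tumour 1 next to lowest for Ccr2 and for the pair, with tumours 4 and 5 exchanged between. Among PoEMs tumour 5 was lowest for Ccr2 and for the pair, but tumour 1, the highest for the pair, was next to lowest for Ccr2. Those low Ccr2 ranks lay close together, at 388.7, 393.1 and 395.5 CPM in tumours 5, 1 and 6. The libraries form 2 groups of 5 that do not overlap for these genes, so no correlation over all libraries is given, and a group of 5 is too small for one of its own.

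**Figure D4:**
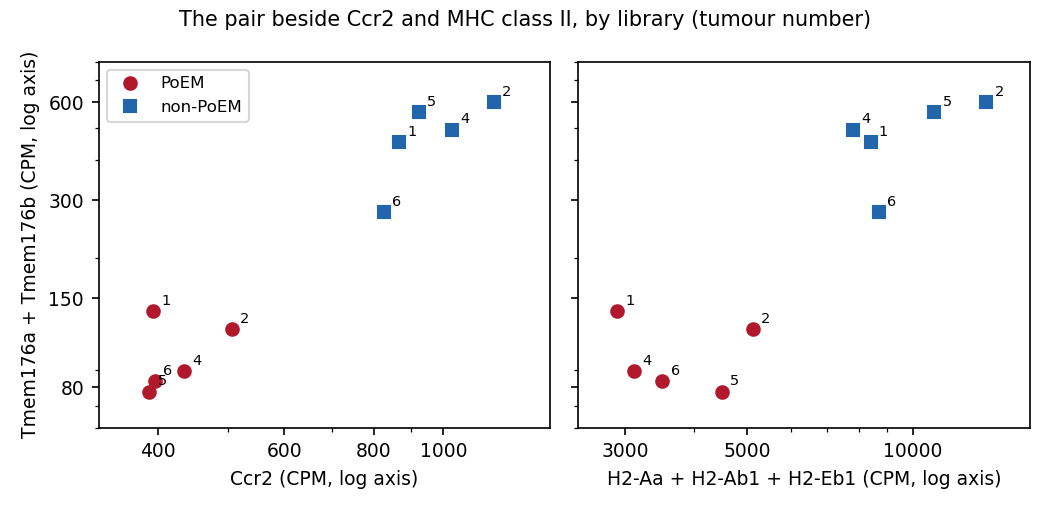
Summed CPM of Tmem176a and Tmem176b against Ccr2 (left) and against the sum of H2-Aa, H2-Ab1 and H2-Eb1 (right), on logarithmic axes. Each point is 1 library with its tumour number, red circles for PoEMs and blue squares for non-PoEMs; among PoEMs, tumour 1 is highest for the pair and lowest for class II at 2897 CPM.

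By likeness over all 10 libraries, where the difference between the fractions dominates, Ccr2, the classical class II chains, Ciita and Cd74 ranked near the top of 9714 genes. H2-Eb1 ranked 8, H2-Aa 9, Ccr2 19, H2-Ab1 30, Ciita 41 and Cd74 50, with SDs of the log2 ratio to the mean of the pair between 0.58 and 0.77. The other ranked class II members stood lower, with H2-DMb1 at 83, H2-DMb2 at 164, Rfx5 at 499, H2-DMa at 937, Rfxank at 941, Ifi30 at 3730, Ctss at 4750 and Rfxap at 7334. A gene at a constant level would have an SD of 1.24. The nearest gene was Slc2a3, which encodes the glucose transporter GLUT3 (SD 0.37), with 5.71 ± 1.598 CPM in PoEMs and 25.7 ± 3.93 CPM in non-PoEMs (SD, n = 5 each). After it came Inpp5j, an inositol phosphatase gene, Kmo, which encodes an enzyme of tryptophan breakdown, the small GTPase gene Rrad, the transcriptional inhibitor gene Id3, S100a9, an abundant transcript of neutrophils and monocytes, and the metalloprotease gene Adam19. Their log2 fold changes lay between -1.38 and -2.16, a direction that the ranking itself fixes.

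With the mean of each fraction removed, class II genes were no longer near the top. H2-Aa then ranked 6373 with an SD of 0.45, H2-Eb1 5625, Ciita 5516 and Cd74 3384, where a gene at a constant level would have an SD of 0.40. Ccr2 ranked 373, with an SD of 0.32. These ranks rest on few libraries: when both libraries of a tumour were left out, the rank of H2-Aa ran from 1550 without tumour 1 to 8969 without tumour 6, that of Cd74 from 636 to 8300 without the same tumours, and that of Ccr2 from 159 without tumour 1 to 1325 without tumour 2.

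The genes nearest to the pair in this measure were Rassf4, a Ras association domain gene (SD 0.19), Ttc12, Parp8, an ADP-ribosyltransferase family gene, Chml, which encodes a Rab escort protein, Dnhd1, Marcks, which encodes a substrate of protein kinase C, Fam65b and Slc16a10, which encodes a transporter of aromatic amino acids (SD 0.23). All 8 SDs were larger than that of 0.087 within the pair.

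**Figure D5:**
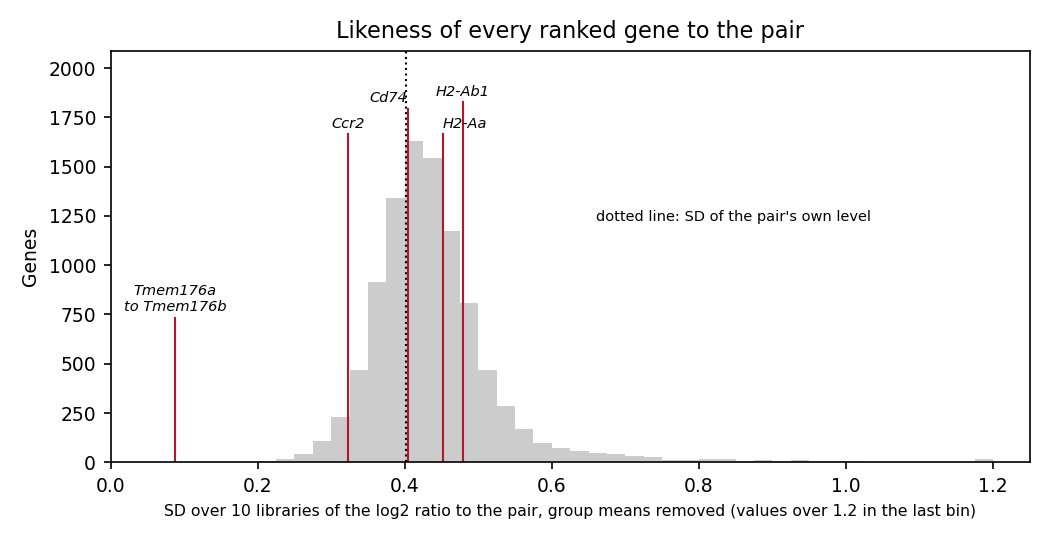
Number of genes by the SD over 10 libraries of their log2 ratio to the mean of the pair, with the mean of each fraction removed (9714 genes). Red lines mark named genes, and the line for the pair is the SD of the ratio of Tmem176a to Tmem176b at 0.087; the dotted line at 0.40 is where a gene of constant level would lie.

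The genes around the pair could hardly be measured. Of the 5 annotated genes on each side, none of the 10 was tested and 6 had no count in any library. The nearest with more than a few counts was Gimap3, a lymphocyte GTPase gene, of whose counts 83 of 93 in PoEMs and 123 of 143 in non-PoEMs came from tumour 2. Of 24 other protein-coding genes that start within 300 kb, 8 were tested. None was lower in PoEMs, beside 6.77% of all genes, and 2 were higher, beside 6.83%. These were Gpnmb, a glycoprotein gene of phagocytes (11.8 ± 3.93 CPM in PoEMs and 2.20 ± 0.824 CPM in non-PoEMs, SD, n = 5 each, edgeR adjusted p = 0.000171), and Rarres2, which encodes the chemoattractant chemerin (3.01 ± 0.861 CPM in PoEMs and 0.537 ± 0.219 CPM in non-PoEMs, edgeR adjusted p = 0.000171). With tumour as a block 3 were higher, Repin1 being added (edgeR adjusted p = 0.046), beside 13.8% of all genes, and 1 was lower, beside 14.3%. The lower one was Igf2bp3, which encodes an RNA-binding protein, at -1.13 ± 0.38 on the log2 scale without the block (SE, edgeR adjusted p = 0.0696) and -1.15 ± 0.16 with it (adjusted p = 0.00013). The wider window was chosen after the values were seen, and 8 tested genes are too few to compare with those shares.

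The pair is related to the MS4A family. Of its 9 tested members of 19 listed, 2 were lower and none higher, beside 6.77% and 6.83% of all genes. Ms4a4c averaged 79.2 ± 20.4 CPM in PoEMs and 163.2 ± 43.8 CPM in non-PoEMs (SD, n = 5 each, edgeR adjusted p = 0.0139), and Ms4a6c fell by 0.29 on the log2 scale (adjusted p = 0.0249, and lost without any of 3 libraries). Ms4a6c passed with tumour as a block (edgeR adjusted p = 0.000435). The macrophage members Ms4a7 and Ms4a4a did not pass, at -0.04 ± 0.15 and -0.12 ± 0.16 on the log2 scale (SE). Ms4a8a and Ms4a4b did not pass either, at -0.87 ± 0.42 and -0.75 ± 0.43 (SE). With tumour as a block 4 were lower, Ms4a4b among them, and 1, Ms4a14, was higher, beside 14.3% of all genes lower and 13.8% higher in that fit.

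Inflammasome genes were measured because TMEM176B is known to act on that pathway. Of 18 members, all tested, 4 were lower and none higher, beside 6.77% and 6.83% of all genes, with a median log2 fold change of -0.11. Mefv, which encodes the sensor pyrin, averaged 27.4 ± 6.22 CPM in PoEMs and 81.6 ± 24.99 CPM in non-PoEMs (SD, n = 5 each, edgeR adjusted p = 0.00168). Casp4, which encodes caspase 11 in mice, fell by 0.72 (adjusted p = 0.0149), the pore gene Gsdmd by 0.27 (adjusted p = 0.0193) and the sensor gene Nlrp1b by 0.29 on the log2 scale (adjusted p = 0.030). The calls for Gsdmd and Nlrp1b were lost without any of 2 and 5 libraries, and held with tumour as a block (edgeR adjusted p = 0.00055 and 0.00169). The sensor gene Nlrp3 and the cytokine gene Il1b stood at -0.30 ± 0.12 and -0.29 ± 0.16 on the log2 scale (SE, adjusted p = 0.125 and 0.253 by edgeR), and passed with tumour as a block, where 8 of the 18 were lower beside 14.3% of all genes.

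Other ion channels and transporters of endosomes and lysosomes were measured because the pair acts there. Of 20 tested members of 21, 2 were lower, beside 6.77% of all genes: P2rx4, an ATP-gated channel gene, at -0.29 ± 0.07, and Tpcn1, a lysosomal cation channel gene, at -0.40 ± 0.11 on the log2 scale (SE, edgeR adjusted p = 0.0212 and 0.0304). Those calls were lost without any of 3 and 5 libraries, and held with tumour as a block (edgeR adjusted p = 0.00324 and 0.00049). None was higher, and the median log2 fold change was -0.093. With tumour as a block 5 were lower and 3, Cyba, Clcn3 and Clcn5, were higher, beside 14.3% and 13.8% of all genes.

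Of the ROR nuclear receptor genes and their targets, only Rora had enough counts to be tested. It was higher in PoEMs, at 14.3 ± 2.01 CPM against 10.4 ± 1.24 CPM in non-PoEMs (SD, n = 5 each, edgeR adjusted p = 0.0186).

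Markers of several other cell types differed between the fractions. Calls here and in the next paragraph stand beside 6.77% of all genes lower and 6.83% higher. With tumour as a block the shares were 14.3% and 13.8%. In that fit 5 of 6 monocyte, 7 of 10 dendritic cell, 6 of 7 neutrophil and 5 of 5 eosinophil markers tested were lower. Higher were 1 neutrophil, 9 of 10 fibroblast and 2 of 5 endothelial markers. Epithelial and tumour cell markers had 2 of 6 lower and 1 higher. Monocyte markers summed to between 469.1 and 687.7 CPM in PoEMs and between 1035 and 1677 CPM in non-PoEMs, with 3 of 6 lower and none at 0. Most of that sum was Ccr2, which averaged 423.7 CPM in PoEMs and 964.1 CPM in non-PoEMs. Conventional dendritic cell markers summed to between 45.7 and 92.3 CPM in PoEMs and between 93.8 and 209.4 CPM in non-PoEMs, with 4 of 10 tested lower (Kmo, Batf3, Cd24a and Dpp4, the last lost without any of 6 libraries but kept with tumour as a block). Of the defining genes of those cells, Flt3 had 18 counts in all PoEM and 95 in all non-PoEM libraries and Xcr1 17 and 14.

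Neutrophil markers summed to between 118.3 and 146.1 CPM in PoEMs and between 217.7 and 291.9 CPM in non-PoEMs, with 6 of 7 tested lower and Mmp8 higher. Eosinophil markers summed to between 4.76 and 14.4 CPM in PoEMs and between 58.6 and 148.8 CPM in non-PoEMs, with 4 of 5 tested lower. Epx, Prg2, Ear1 and Ear6 had no count in any PoEM library and 14, 116, 1 and 4 counts in all non-PoEM libraries. For Epx, Ear1 and Ear6 these counts are too few to show a difference. Fibroblast markers ran the other way, between 288.7 and 472.5 CPM in PoEMs and between 29.2 and 41.6 CPM in non-PoEMs, with 9 of 10 higher. T cell and innate lymphoid markers summed to between 73.9 and 111.5 CPM in PoEMs and between 34.9 and 62.2 CPM in non-PoEMs, where of 3 tested Il7r was higher and Cd4 lower. Most of the PoEM sum was Il7r, at 69.0 ± 15.3 CPM against 16.3 ± 1.71 CPM in non-PoEMs (SD, n = 5 each). Every other member had fewer counts in PoEMs. Cd3e, Cd3d, Cd3g and Trac had 32, 8, 14 and 36 counts in all PoEM and 70, 28, 30 and 56 in all non-PoEM libraries. The sums overlapped for epithelial and tumour cell markers, at 93.5 to 255.5 CPM in PoEMs and 77.9 to 208.0 CPM in non-PoEMs with none of 6 tested called, and for endothelial markers, at 206.6 to 494.2 CPM in PoEMs and 149.7 to 411.4 CPM in non-PoEMs with Vwf of 5 tested higher. B and plasma cell markers summed to between 1.75 and 17.04 CPM in PoEMs and between 3.75 and 39.8 CPM in non-PoEMs, and Cd79b, the 1 tested, was lower. The part of these cells in the level of the pair was not tested.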

How the data were processed

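RNA of sorted macrophages was pre-amplified by SMART-Seq and sequenced, per the labels' protocols. Per the submitters' processing notes, the tools named are featureCounts 1.5.3, STAR 2.5.2b, Bowtie2 2.3.3.1 and cutadapt 1.15, with no order given. Neither build nor annotation is named, and strand use is not stated. The authors deposited raw read counts per gene without molecular identifiers, so counts are reads and not molecules. Counts differed between libraries beyond sampling noise within each group, so all 10 were kept as samples.

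Genes were filtered with filterByExpr (minimum count 10, minimum total 15), scaled by TMM and tested with edgeR 4.0.16 (quasi-likelihood, R 4.3.3), PoEM against non-PoEM, with Benjamini-Hochberg adjustment over all 13595 tested genes at 0.05. The fit was checked on simulated counts. p-values measure the spread between these libraries. 1 count was worth 0.0652 to 0.0782 CPM. Tumour numbers in the labels pair the libraries: the deviations of same-numbered libraries correlated over genes at 0.499, 0.449, 0.237, 0.448 and 0.437 for tumours 1, 2, 4, 5 and 6. The sources state no model, so tumour as a block was an alternative, beside DESeq2 1.42.0, other scalings, no filter and leaving out libraries. The fit reported first therefore leaves the pairing unused, and it called fewer genes than the blocked fit.

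The named genes are the pair, all class II members, the 4 genes with the lowest p of each other list and the 8 genes most like the pair by each measure. The members and lists were chosen with earlier results of these data known. Likeness ranks without each tumour, the wider neighbour window and the genes named beyond this rule were chosen after seeing the data.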

Additional observations from a re-analysis of the deposited data

Results flagged for a closer look

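A library stood far from the other 4 of its fraction in 8 of 115 gene and fraction combinations examined, by Dixon's ratio of gap to range. Chance alone flags about 1 in 20 such groups. Neither gene of the pair was among them.

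Tumour 2 was high for both chains of the class II loading modulator H2-O. H2-Oa measured 3.67 CPM in the non-PoEMs of tumour 2, where the median of the fraction was 1.17 CPM. H2-Ob measured 4.40 CPM in the PoEMs and 9.17 CPM in the non-PoEMs of tumour 2, where the median was 1.124 CPM in PoEMs and 2.28 CPM in non-PoEMs. B and plasma cell markers summed to 17.04 CPM in the PoEMs and 39.8 CPM in the non-PoEMs of tumour 2, and to at most 2.74 CPM in the other PoEM and 5.97 CPM in the other non-PoEM libraries. Their part in the H2-O values was not tested.

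PoEMs of tumour 6 were high for 3 genes. Adgre1 measured 650.1 CPM there against a PoEM median of 489.9 CPM, Csf1r 2801 against 2293 CPM and Adam19 16.9 against 10.9 CPM. Slc2a3, the gene most like the pair over all libraries, measured 32.4 CPM in the non-PoEMs of tumour 2, where the median was 25.02 CPM. Cd177 measured 0.391 CPM in the PoEMs of tumour 4, where the median was 1.05 CPM.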

How the results depend on the processing

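The log2 fold change of the pair kept its sign and size under every alternative run: leaving out 1 library gave -2.47 to -2.21 for Tmem176a and -2.32 to -2.09 for Tmem176b, and tumour as a replicate block gave -2.30 and -2.17. The log2 ratio of Tmem176a to Tmem176b stayed between -0.85 and -0.81 without any 1 library. No result reversed. Over all genes 929 were called higher and 920 lower, against 1880 and 1950 with the replicate block. With the block and without both libraries of a tumour the calls were 1505 higher and 1692 lower (tumour 1), 1360 and 1380 (tumour 2), 1447 and 1677 (tumour 4), 1398 and 1564 (tumour 5) and 1925 and 2016 (tumour 6). Without 1 library and no block they ran from 617 to 1049 higher and from 577 to 1026 lower, the lowest being 617 higher and 588 lower without the PoEMs of tumour 4 and 577 lower without the non-PoEMs of tumour 2. The cause was not tested. Class II members called lower numbered 7 to 9 without 1 library and 11 with the block, and monocyte genes 5 to 9 and 9. Depth limits genes with few counts, such as the near neighbours of the pair, whose differences were not detectable here.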
